A study of Mus musculus with 6 samples.

Results

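The probes described here carry IDs that begin with humanlincRNA, a number, and a plus or minus sign. They are 1217 of the 59709 different probes that the array holds once control and negative probes are set aside, and they were taken by their ID alone. Each has 1 spot per array. Of these probes 608 carry a plus sign and 609 a minus sign, on 609 different numbers between 0002 and 2514, and 608 numbers have a probe of each sign. The sign is read here as the strand and a shared number as a shared locus, from the ID only. Long intergenic noncoding RNAs (lincRNAs) are transcripts made from stretches between protein-coding genes; they are not translated, and some act in the nucleus on chromatin and transcription. They are usually less abundant and more cell-type-restricted than messenger RNAs, their sequence is less conserved between species, and some are induced or repressed when lymphocytes are activated. The array was designed on the mouse build mm9, per the file headers. The sources used here do not say whether a probe was built on a human transcript or on its mouse counterpart, and probe sequences and genome positions were not analysed.

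The RNA was that of affinity-purified splenic B cells from 6 female BALB/c mice, each hybridised to a one-colour Agilent array of its own. The 3 arthritic mice had proteoglycan-induced arthritis, an autoimmune joint disease provoked in this strain by human proteoglycan from cartilage, with cell collection 10 days past the third injection. The 3 non-arthritic mice had adjuvant, also with cells taken at 10 days, per their sample descriptions, although the treatment protocol in the labels speaks of proteoglycan for every mouse. No allele or transgene is named for either group, and the sources used here give no age for the mice. P-values set a difference between the groups against the spread between these mice. The array pairs 116 probes with a RefSeq gene through their accessions (assembly GRCm38.p6). None of those is 1 of the 22 listed markers of B cells or other spleen cells, so the purity of the B cells could not be read from named probes. In bulk RNA, fewer cells of one kind and less RNA per cell cannot be told apart.

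Signal is given as the log2 processed signal minus the array's own 75th percentile, so that 0 is the 75th percentile of that array and each step of 1 is a doubling. Over these probes, too, the array of non-arthritic mouse 1 differed most from the rest. Across the 227 humanlincRNA probes tested below, its signal correlated at 0.836 and 0.848 with non-arthritic mice 2 and 3, which correlated at 0.907 with each other, and the lowest correlation between arthritic mice was 0.903. They were taken across probes, which are no independent replicates. In non-arthritic mouse 1, 41 of the 227 probes lay below the mean of mice 2 and 3 by 2-fold or more and 4 lay above it by as much. Together these were 19.8%, beside 22.7% of all probes, so that this was not particular to the humanlincRNA probes. Between non-arthritic mice 2 and 3, 25 of the 227 (11%) differed by 2-fold or more, beside 3.62% of all probes. The calls and the median difference are also given without non-arthritic mouse 1.

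Most human-derived lincRNA probes gave no signal that the scanner software called well above background, but far more did than spots made to bind nothing. Of the 1217 probes, non-arthritic mice 1 to 3 had 186, 241 and 237 well above background and arthritic mice 1 to 3 had 237, 200 and 235, or 15.3% to 19.8%. Of the 1200 spots of 20 negative-control probes, between 2.83% and 4.25% were called so on the same arrays. The group means were 224.0 ± 20.8 probes in arthritic and 221.3 ± 30.7 in non-arthritic mice (SD, n = 3 each), which overlapped (exact permutation test, two-sided, p = 1, where 0.1 is the smallest p that 3 against 3 mice allow). The lowest counts came from non-arthritic mouse 1 and arthritic mouse 2, and the latter also had the lowest share over all probes, 42.65% against 45.51% to 47.55% on the other arrays.

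**Figure D1:**
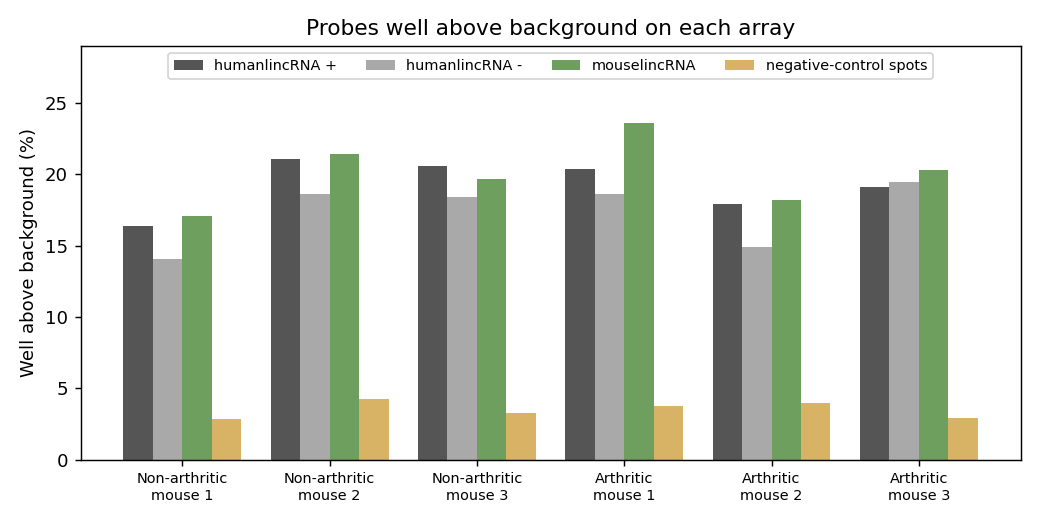
Share of probes called well above background (vertical axis, %) on each of the 6 arrays (horizontal axis, 1 mouse each), for humanlincRNA probes with a plus or a minus sign, mouselincRNA probes and negative-control spots. On every array the humanlincRNA shares, between 14.1% and 21.1%, are above the negative-control spots, which reach 4.25%.

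Most of these probes were called on no array, and those called were spread from 1 array to all 6. On 0 of the 6 arrays were 882 probes (72.5%) well above background, 137 (11.3%) were so on all 6, and of the rest 78 were so on a single array. Probes named mouselincRNA were close to this (70.2% on no array and 12.7% on all 6), whereas 54.1% of the mouse lincRNA exon probes (MM9LINCRNAEXON) were on no array and 26.9% on all 6. Over the whole array these shares were 44.3% and 37.8%. Where a probe was called in 1 group only, it was usually by a single mouse. Calls on a single array were found for 6.41% of these probes and 6.32% of all probes. Negative-control spots were called at 2.83% to 4.25% per array, so a single call is not read as detection in a group. The counts by group that follow were not taken over all probes. In total, 45 probes were called in at least 1 arthritic and no non-arthritic mouse, 44 the reverse, and 0 were called in all 3 arthritic mice and no non-arthritic mouse. The reverse held for 2 probes, humanlincRNA1211+ and humanlincRNA0717- (IDs are given without their common ending).

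Signal from a humanlincRNA number usually came from 1 strand. With detection taken as a call well above background in 3 or more mice, 406 of the 608 numbers with both probes had neither detected, 95 had the plus probe alone, 82 the minus probe alone and 25 both. Thus 12.4% of the 202 numbers with any detected probe had both, against 9.38% of 128 mouselincRNA numbers and 21.6% of 1039 MM9LINCRNAEXON numbers. The share of single probes detected also differed, at 18.7%, 20.4% and 36.5% in these families. Whether strands of a number were detected together more or less often than these rates give was not tested. In the strictest form, 91 of the 608 humanlincRNA numbers had 1 strand well above background on all 6 arrays and the other on none. Of these, 53 were on plus and 38 on minus, while 13 numbers had both strands on all 6. The former pattern held for 59 of 340 mouselincRNA and 511 of 1728 MM9LINCRNAEXON numbers, and the latter for 7 and 113. Plus probes were detected somewhat more often than minus probes, 120 of 608 (19.7%) against 107 of 609 (17.6%), a difference that was not tested because probes are not replicates. Per array the plus probe count exceeded the minus count in 5 of 6 mice, the exception being arthritic mouse 3 with 116 plus and 119 minus.

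**Figure D2:**
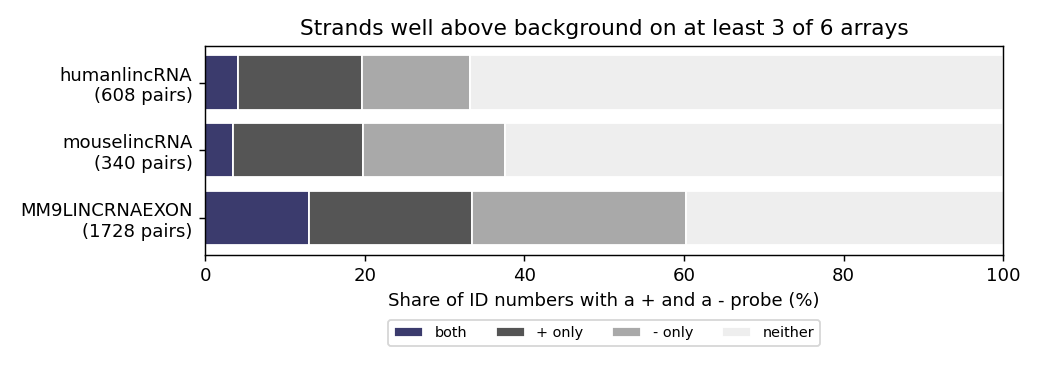
Share of ID numbers (horizontal axis, %) with both, only the plus, only the minus or neither probe well above background on at least 3 of 6 arrays, for 3 lincRNA probe families (vertical axis, with the number of pairs). Both strands were detected for 4.11% of humanlincRNA, 3.53% of mouselincRNA and 13.0% of MM9LINCRNAEXON numbers.

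The detected probes were mostly dim. Over the 227 probes detected in 3 or more mice, the median of the mean scaled signal was -1.48, with quartiles of -2.03 and -0.37, against 0.17 over all 27869 probes so detected. A mean signal above each array's 75th percentile was found for 42 of the 227 (18.5%), against 52.4% of all probes. The range ran from -3.01 to 5.73, while all probes reached 10.47. The mouselincRNA probes so detected were nearly as dim, with a median of -1.35 and 20.6% above the 75th percentile. The MM9LINCRNAEXON probes so detected had -0.66 and 38%. Signals of different probes do not rank transcripts by abundance, since probes differ in how well they bind.

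The brightest human-derived probe was humanlincRNA2438+, and its groups overlapped. Non-arthritic mice 1 to 3 had scaled log2 signals of 5.13, 5.94 and 5.94, and arthritic mice 1 to 3 had 5.79, 5.68 and 5.92. The log2 difference was 0.13 (SE 0.259, limma adjusted p = 0.813). The minus probe of the same number was far dimmer and lay lower in every arthritic mouse: -0.73, -0.69 and -0.91 against -1.28, -1.42 and -1.42. That difference of -0.60 (SE 0.147) had a limma adjusted p of 0.0593 and so did not pass 0.05, although it passed with quantile normalization (adjusted p = 0.0317), the filter on all 6 arrays (0.0432) and without non-arthritic mouse 1 (0.0109). With normexp correction the difference was -0.33 and the adjusted p 0.237, and it did not pass with median scaling (0.0611), an intensity trend (0.086), no filter (0.157) or the replicate block (0.155) either.

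The other bright probes were, in order of mean signal, humanlincRNA0671+, 2163-, 1773+, 2330+, 1119+, 2296+ and 1396+. Of these only 0671+ passed the threshold. The log2 differences of 2163-, 1773+, 2330+ and 1119+ were 0.42, 0.65, 0.29 and 0.43, with limma adjusted p values of 0.130, 0.196, 0.394 and 0.169, and their groups did not overlap. Those of 2163-, 1773+ and 1119+ had adjusted p values of 0.0147, 0.0240 and 0.0381 without non-arthritic mouse 1. Probe 2296+ varied between mice of the same group: it was 3.27, 2.42 and 3.70 in non-arthritic and 2.34, 2.27 and 3.68 in arthritic mice, so that mouse 3 of both groups and non-arthritic mouse 1 were high.

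The central comparison asks which of these probes differ between B cells of arthritic and non-arthritic mice. Of 227 tested, 7 rose in the arthritic mice and 2 fell, by limma's moderated test with Benjamini-Hochberg adjustment over all 27869 probes tested and a threshold of 0.05. Over all probes, 4.34% were higher and 4.29% lower, and the shares here were 3.08% and 0.881%. In either direction together, 3.96% were called, against 8.63% of all probes. Of the 9, 6 that rose (2.64%) and both that fell (0.881%) differed by 2-fold or more, beside 3.15% and 2.74% of all probes. The 7 were 4 plus and 3 minus probes, and the 2 were 1 of each. At an unadjusted p under 0.05, 27 probes were higher (11.9%) and 4 lower (1.76%), beside 13.0% and 11.6% of all probes. The groups did not overlap for 45 higher (19.8%) and 5 lower probes (2.2%), beside 22.2% and 17.2%. The other 990 humanlincRNA probes were not tested, and a probe detected in 1 group alone could enter the test only by being called in all 3 of its mice.

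**Figure D3:**
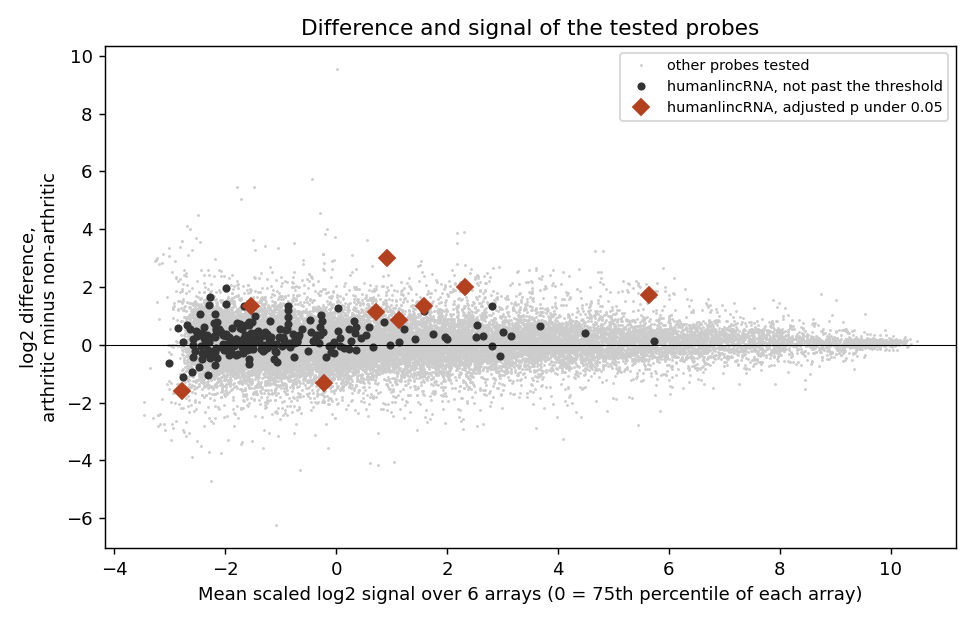
Log2 difference, arthritic minus non-arthritic (vertical axis), against the mean scaled log2 signal over 6 arrays (horizontal axis), for the 227 tested humanlincRNA probes over all other tested probes (grey). Diamonds mark the 9 probes with a limma adjusted p under 0.05, of which 7 lie above 0 and 2 below.

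The probe with the widest difference was humanlincRNA2356-. Its scaled log2 signal was -1.75, 0.02 and -0.02 in the non-arthritic mice, listed from mouse 1 to mouse 3 here and below, and 2.44, 2.48 and 2.32 in the arthritic ones. All 3 arthritic mice were close together and far above every non-arthritic mouse, and mouse 1 was the lowest of the latter. It rose 7.98-fold, from -0.58 ± 1.01 to 2.41 ± 0.085 (SD, n = 3 each; log2 difference 3.00, SE 0.486, limma adjusted p = 0.0182), with a log2 difference of 2.41 (SE 0.070, limma adjusted p = 3.7e-04) without non-arthritic mouse 1. Its plus partner, humanlincRNA2356+, was not well above background on any array.

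Probe humanlincRNA1245+ behaved similarly at a higher signal, with 0.83, 1.53 and 1.61 in the non-arthritic and 3.38, 3.34 and 3.26 in the arthritic mice. It rose 4.01-fold (log2 difference 2.00, SE 0.240, limma adjusted p = 0.00786). The groups did not overlap, and the minus partner was not well above background on any array.

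The brightest of the probes that rose was humanlincRNA0671+. Its processed signal before scaling was 3440, 3643 and 3715 in the non-arthritic mice and 12273, 12053 and 13023 in the arthritic mice. Scaled, these were 4.20, 5.04 and 5.09 against 6.49, 6.49 and 6.50, a 3.29-fold rise (log2 difference 1.72, SE 0.266, limma adjusted p = 0.0160). The 3 arthritic mice differed from each other by an SD of 0.005, the non-arthritic mice by 0.501, chiefly through mouse 1. The minus partner was detected in all 6 mice, from -1.86 to -0.75, with a log2 difference of 0.01 (SE 0.357, limma adjusted p = 0.992).

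Smaller rises were found for 4 further probes. For humanlincRNA2397- the values were 0.60, 1.18 and 0.94 against 2.07, 2.51 and 2.19 in the arthritic mice, a 2.55-fold rise (limma adjusted p = 0.0175). For humanlincRNA1518- they were 0.13, 0.12 and 0.19 against 1.23, 1.38 and 1.27, a 2.22-fold rise (limma adjusted p = 0.0079). This probe varied least between mice of one group among the 137 probes well above background on all 6 arrays, with an pooled within-group SD of 0.063, and non-arthritic mouse 1 was not apart from mice 2 and 3 in it.

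The other 2 probes that rose were not called under some processing. Probe humanlincRNA1527+ was dim, at -2.62, -1.99 and -1.98 against -0.91, -0.74 and -0.93, and was well above background in 2 of the 3 non-arthritic mice (2.53-fold, limma adjusted p = 0.0184); with normexp background correction its log2 difference was 0.44 in place of 1.34, and the adjusted p 0.249. Probe humanlincRNA2410+ had 0.60, 0.99 and 0.52 against 1.43, 1.69 and 1.54 (1.80-fold, limma adjusted p = 0.0435). Its difference of 0.85 on the log2 scale had an adjusted p of 0.103 with no filter on dim probes, where the difference was the same, and of 0.089 with the replicate block. In both, every arthritic mouse was above every non-arthritic mouse.

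Among the 2 probes that fell, humanlincRNA1165- was well above background on all 6 arrays. Its scaled log2 signal was 0.22, 0.64 and 0.49 in the non-arthritic mice and -0.86, -0.81 and -0.996 in the arthritic mice, a fall by 1.34 on the log2 scale (SE 0.169, limma adjusted p = 0.00908), or 2.53-fold. The groups did not overlap, and without non-arthritic mouse 1 the log2 difference was -1.45. Its plus partner was not well above background on any array.

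Probe humanlincRNA1211+ was well above background in all 3 non-arthritic mice, at -2.13, -1.93 and -1.86, and in no arthritic mouse, at -3.08, -3.59 and -4.04. The arthritic values are therefore only an upper limit, and the signal was at least 1.34-fold lower, taking for each arthritic array the lowest signal called well above background there. The fitted log2 difference of -1.60 (SE 0.266, limma adjusted p = 0.0196) is not a measured size, and it was -0.46 with an adjusted p of 0.178 under normexp correction. Next to the threshold on its other side was humanlincRNA0717-, with the same pattern of detection, at -2.04, -2.15 and -1.94 against -4.40, -3.49 and -2.95 (limma adjusted p = 0.0519, at least 1.28-fold lower). The next, humanlincRNA1396+, had 1.40, 2.54 and 2.46 against 3.66, 3.44 and 3.34 in the arthritic mice (log2 difference 1.34, SE 0.329, limma adjusted p = 0.0593). Without non-arthritic mouse 1 its difference was 0.98, with a limma adjusted p of 0.00427. It also passed with median scaling (0.0351), normexp (0.0065), the filter on all 6 arrays (0.0481) and an intensity trend (0.0444), and did not with quantile normalization (0.0529), no filter (0.114) or the replicate block (0.109).

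**Figure D4:**
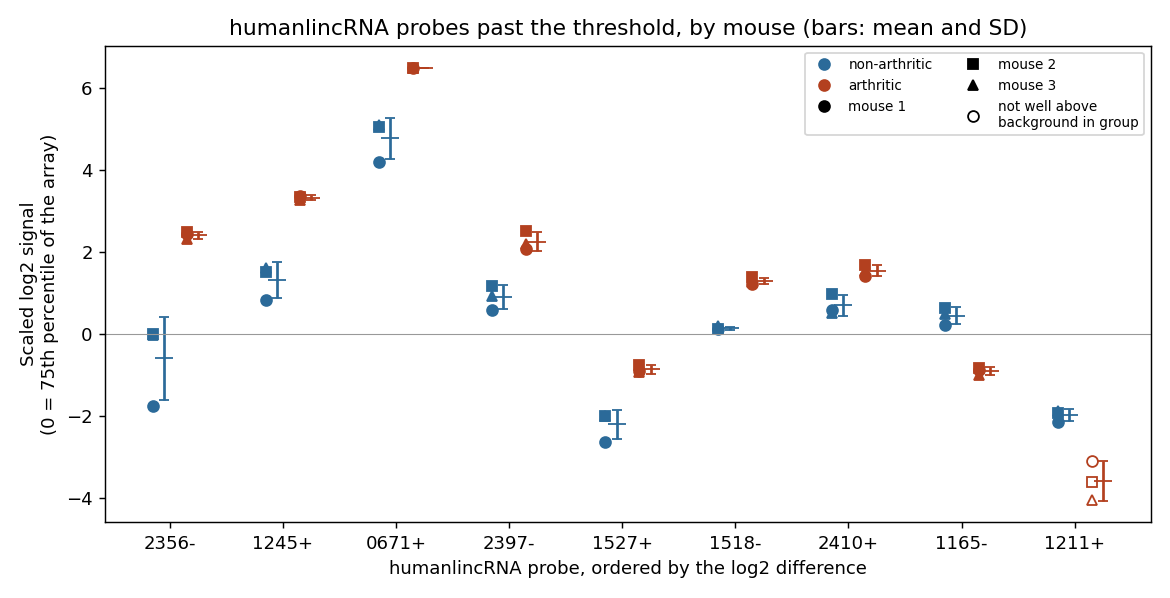
Scaled log2 signal (vertical axis, 0 is the array's 75th percentile) of the 9 humanlincRNA probes with a limma adjusted p under 0.05 (horizontal axis), by mouse, with the group mean and SD beside the points. Open symbols mark a group in which no mouse was well above background, which is the case for the arthritic mice in 1211+ alone; the arthritic points cluster more tightly than the non-arthritic ones in 2356-, 1245+ and 0671+.

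The 9 calls were not kept in every fit. With any 1 of the 3 arthritic mice left out, 0 of the 7 remained called; 1 of the 2 that fell, 1211+, was called without arthritic mouse 1, and neither without mouse 2 or 3. In those fits 17, 17 and 24 of the 227 probes had an unadjusted limma p under 0.05 (7.49%, 7.49% and 10.6%), beside 16%, 16.4% and 17.3% of all probes, and 1.05%, 1.3% and 1.23% of all probes were called. Without non-arthritic mouse 2 or 3, 7 and 6 of the 9 were called again in the same direction. Of the 227 probes, 3.52% and 2.64% were called then, beside 3.43% and 3.36% of all probes. Without non-arthritic mouse 1, all 9 were called again in the same direction, among 25 higher and 6 lower probes. Their absolute log2 differences ran from 0.29 to 2.41, and together they were 13.7% of the 227. Over all probes, 40.4% were called in that fit, 18.1% higher and 22.3% lower. The log2 differences of the 9 were then 2.41 for 2356-, 1.75 for 1245+, 1.43 for 0671+, 1.19 for 2397-, 1.14 for 1518-, 1.13 for 1527+, 0.79 for 2410+, -1.45 for 1165- and -1.68 for 1211+. Both fits share their other 5 arrays. Without non-arthritic mouse 1, called differences of 2-fold or more were found for 7 higher and 3 lower probes, a count not taken over all probes. Of those 10, 2 were not called with all mice, and they were picked after their values were seen. The first, humanlincRNA0520-_P1, had -4.31, -2.29 and -2.31 in the non-arthritic mice and -0.95, -1.09 and -0.94 in the arthritic mice, with a log2 difference of 1.31 without mouse 1 (SE 0.069, limma adjusted p = 7.56e-04) and 1.98 with it (SE 0.549, limma adjusted p = 0.0823). Mouse 1 was not well above background there, so that the second difference rests in part on a value that is only a limit. The second, humanlincRNA0518+_P1, had -3.01, -1.23 and -1.09 against -2.31, -3.57 and -2.60, and was well above background in 2 non-arthritic and 1 arthritic mice, with differences of -1.67 (limma adjusted p = 0.0355) and -1.05 (limma adjusted p = 0.339).

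Per the file headers, one row of the slide held every non-arthritic array and that of arthritic mouse 1, and the second row held those of arthritic mice 2 and 3. When the row entered as a block, 0 of the 227 probes were called by limma, beside 0.00359% of all probes. An unadjusted limma p under 0.05 was found for 17 (7.49%), beside 11.1% of all probes, and the 9 probes had adjusted p values from 0.159 to 0.475. The contrast there rests on arthritic mouse 1. Within that row, its differences from the non-arthritic mice were 3.02 for 2356-, 2.05 for 1245+, 1.72 for 0671+, -1.31 for 1165- and -1.11 for 1211+, and all 9 kept their sign, as groups that do not overlap must.

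As a group, the human-derived probes had a median log2 difference of 0.22, with quartiles of -0.06 and 0.51, against 0.06 over all probes tested, and 158 of the 227 (69.6%) were above 0, against 55.0%. Plus and minus probes were alike, with medians of 0.21 and 0.23. Other lincRNA probes also lay above the median of all probes. The tested mouselincRNA probes had a median of 0.164, with 66% above 0, and the tested MM9LINCRNAEXON probes 0.148, with 62%. Tested probes named by a GenBank record had 0.155, with 63.2%, so the shift was not particular to families named lincRNA. In the 4 equal brightness classes of all tested probes, from dim to bright, the humanlincRNA medians were 0.18, 0.20, 0.39 and 0.42, over 122, 68, 30 and 7 probes, beside 0.05, 0.03, 0.04 and 0.09 for all probes. This median moved with non-arthritic mouse 1, in which the 227 probes were lower than in mice 2 and 3 by a median of 0.40 on the log2 scale, against 0.34 over all probes. Without that mouse it was 0.08, against -0.03 over all probes. With normexp correction of the median spot signals it was -0.002 against 0.02, with 110 of 227 probes above 0, so that the group's direction was not kept under that alternative, which changed the input signal and the background correction together. In the arthritic mice the median SD per probe was 0.23, against 0.39 in the non-arthritic mice; over all probes these were 0.10 and 0.40.

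No called number passed the threshold on both strands. Of the 9 called probes, 4 had a partner on the other strand that was not well above background on any array, and 5 had a partner detected and tested, none of which passed the threshold. The lowest limma adjusted p among those 5 partners was 0.237, for humanlincRNA1527-, with a log2 difference of 0.46. As a description of these 5 numbers, which were picked by the call on 1 strand, the scaled log2 signal of the plus probe minus that of the minus probe was taken within each array. For 0671 it was 5.45, 6.71 and 5.84 in the non-arthritic and 7.37, 8.34 and 7.41 in the arthritic mice, so that the plus strand gained on the minus strand by 1.71 and the groups did not overlap. For 2397 it was lower by -1.47 in the arthritic mice, from -0.71 ± 0.361 to -2.18 ± 0.454 (SD, n = 3 each), the minus strand gaining. The differences were -1.38 for 1211, where the arthritic plus signal is only a limit, 0.88 for 1527 and 0.54 for 2410. Whether the strands differ in their change was not tested.

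Over the 25 numbers with both strands tested, 16 had both differences above 0, 3 had both below and 6 had opposite signs. The median absolute gap between the differences of the 2 strands was 0.60. By the mean signal of both strands, the brightest such numbers beside 0671 were 2163, 2438 and 0318. In 2163 the minus probe was the brighter, from 4.21 to 4.77 over the 6 mice, and the plus probe lay between 2.31 and 3.27 with a log2 difference of -0.06 (SE 0.272). In 0318 both strands had like signals in 5 mice, and the plus probe was low in non-arthritic mouse 1, at -0.65 against 1.78 to 2.27 in the other 5 mice, while the minus probe was not, at 2.02.

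**Figure D5:**
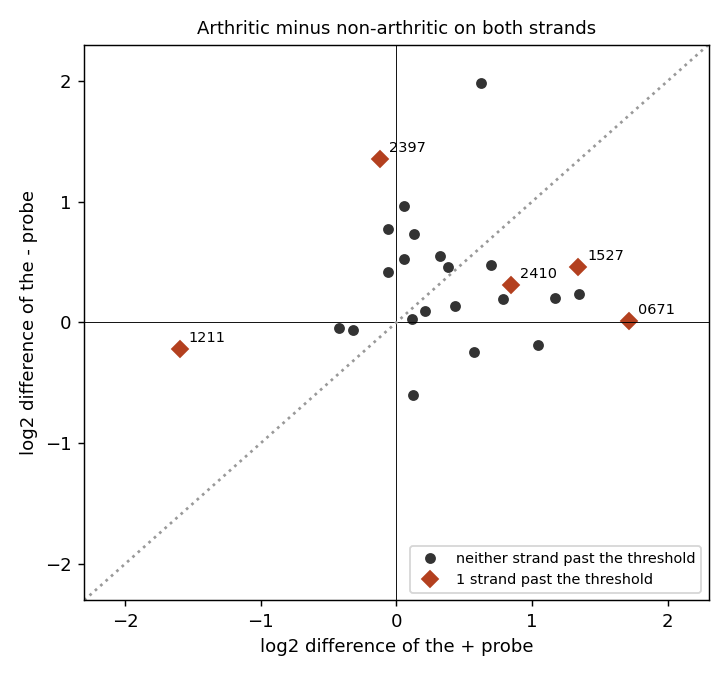
Log2 difference, arthritic minus non-arthritic, of the plus probe (horizontal axis) and the minus probe (vertical axis) of the 25 humanlincRNA numbers with both strands tested; the dotted line marks equal differences. Diamonds are the 5 numbers in which 1 strand had a limma adjusted p under 0.05, for example 0671 with 1.72 on plus and 0.01 on minus; the gap of 2410, 0.54, is below the median gap of 0.60 over the 25.

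Some probes varied widely between mice of one group. Among the 137 probes well above background on all 6 arrays, the largest pooled within-group SD, 1.504, was that of humanlincRNA0191+, at 3.11 in arthritic mouse 2 and between -0.87 and -0.36 in the other 5 mice. Its processed signal was 1163 in that mouse and 75 to 102 in the others, from 1 spot per array, none flagged as an outlier. Probe humanlincRNA0789+ had an SD of 1.30 and was low in mouse 3 of both groups, at -1.64 and -1.20, against 0.08 and 0.95 in the other non-arthritic and 0.96 and 1.09 in the other arthritic mice. The third was 0318+, with 1.02, through the low value of non-arthritic mouse 1. None of the 3 passed the threshold with all mice, with limma adjusted p values of 0.481, 0.777 and 0.348. The groups overlapped for 0191+ and 0789+ but not for 0318+, whose log2 difference of 1.17 became 0.34 without non-arthritic mouse 1, with a limma adjusted p of 0.0308.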

How the data were processed

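Per the file headers, the deposited processed signal is a spot intensity that Agilent Feature Extraction 11.0.1.1 (9.1 per the submitters' processing notes) had background-subtracted and detrended within each array, with other columns of flags per spot; it was not normalized between arrays. Median spot and background intensities are deposited too, per the file headers. Their table of 13655 log2 values per array, deposited by the authors, holds 0 humanlincRNA probes and was not used.

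Control spots (1319 of 62513) and 1200 negative-control spots were set aside. The log2 signal minus the array's 75th percentile was averaged over spots of a probe. The 27869 probes well above background on at least 3 arrays were fitted together with limma 3.58.1 (lmFit and eBayes without covariates, run under R 4.3.3). The test was two-sided and the p-values were adjusted by Benjamini-Hochberg over all of them. The fit was also run on simulated data with the same spread in both groups. The spread differed between the groups in the real data, so that run does not show how the fit behaves there. Each array is a different mouse, and n = 3 per group limits the precision. Figures were drawn with matplotlib 3.10.9.

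The probes and lists were chosen with earlier results of these data known. Named are all probes past the threshold, the 2 next to it, the 8 brightest, those detected in 1 whole group only, the 4 brightest pairs with both strands on all 6 arrays, and the 3 most and 3 least variable. Alternatives were quantile and median scaling, normexp (offset 50, on median spot and background signals), other filters, an intensity trend, robust variance, array weights, blocks for mouse number and slide row, each array left out, and a 2-fold threshold.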

Additional observations from a re-analysis of the deposited data

How the results depend on the processing

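The counts of 7 higher and 2 lower probes moved with array weights (32 and 9, or 18.1% of the probes against 44.2% of all probes), with the slide row as a block and within the first slide row alone (0 and 0 in each, with 17 and 14 of 227 probes, 7.49% and 6.17%, at an unadjusted limma p under 0.05, against 11.1% and 6.73% of all probes), and with normexp, where 8 were higher and 1 lower. With 1 array left out, the higher count lay between 0 and 25 and the lower count between 0 and 6. The counts with quantile scaling, median scaling, an intensity trend, robust variance, either other filter on dim probes or a 2-fold threshold were from 6 to 8 higher and from 2 to 3 lower. With normexp, 3.96% of the 227 probes were called, beside 9.72% of all probes. With quantile and with median scaling 4.85% were called, beside 12% and 9.59% of all probes. Whether same-numbered mice of the groups shared more than a number could not be settled. Their deviations correlated at 0.04, 0.295 and 0.236 for mice 1, 2 and 3, with no reference to read these values against. The replicate block gave 6 higher and 1 lower, or 3.08% of the 227 probes against 3.27% of all probes. The median log2 difference, 0.22, was -0.002 with normexp and ranged from 0.08 to 0.272 with 1 array left out. The number of detected probes, 227, was 137 when all 6 arrays were required, 335 when 1 was enough, and 208 to 223 with 1 array left out. For normexp, array weights, the blocks and the arrays left out, the cause was not tested. The precision is limited by 3 mice per group, and 39.6% of the tested probes were not well above background on every array.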
